A study of Homo sapiens with 36 samples.

Results

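The mitosis and spindle genes are 40 genes that carry cells through division, from the kinases that start mitosis to the proteins that cut the daughter cells apart. They were chosen by symbol and picked up by their human Entrez numbers, and all 40 were found among the 26468 genes of the deposited table. All 40 also passed the filter on low values that left 15542 genes to test. RNA was sequenced from 6 human colon cancer cell lines in log-phase growth, HCT 116, SW 480, HT-29, COLO 205, HCT-15 and COLO 320. Every line has 3 libraries from cells given JQ1 at 0.5 µM for 24 h and 3 from cells given its solvent DMSO, which makes 36 libraries in 12 groups. JQ1 blocks BET bromodomain proteins, which bind acetylated chromatin and promote transcription. Each is 1 established line, no other allele or agent is named in the labels, and they do not say whether replicates were separate cultures. The p-values below therefore measure only the spread between these libraries, which may be technical.

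Mitosis begins when cyclin B and the kinase CDK1 are activated together by CDC25 phosphatases, with PLK1 and the aurora kinases acting beside them. Chromosomes are then caught by spindle microtubules at their kinetochores, a checkpoint holds back the anaphase-promoting complex until all are attached, and the midzone and contractile ring divide the cell. Most of these genes are transcribed late in the cell cycle, through promoters that the MuvB complex binds with B-MYB and FOXM1 in dividing cells. In bulk RNA, fewer cells near mitosis and less transcript in each cell cannot be told apart, and this holds for every value below.

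Depth ran between 18.8 and 53.1 M reads in genes per library (median 24.5 M), which makes 1 read over 1 kb of gene equal to 0.0191 to 0.0524 RPKM. RPKM divides reads by gene length and library depth, so levels of different genes are compared per length. HEXIM1, a known BET-inhibitor readout, rose in all 6 lines, by 1.79 log2 units on average (3.45-fold), and MYC fell in all 6, by 0.83 on the log2 scale (1.78-fold lower). Of 6 colon epithelial markers, 5 or 6 averaged at least 1 RPKM in both treatments of the other 5 lines, but 3 did so with JQ1 and 4 with DMSO in COLO 320, where CDH1 and VIL1 were near 0. EPCAM in COLO 320 averaged 0.0713 RPKM with JQ1 and 1.37 RPKM with DMSO. CDX2, on the same list, was also lower with JQ1 in COLO 320, at 848 RPKM with JQ1 and 1099 RPKM with DMSO. Its level there was nevertheless the highest of the 6 lines. Summed colon markers stood at 7641 to 7703 RPKM with JQ1 and 3427 to 3494 RPKM with DMSO in HT-29, and at 5669 to 5738 RPKM with JQ1 and 2052 to 2072 RPKM with DMSO in HCT-15. KRT8 and KRT18 made up most of these sums. In both lines KRT8, KRT18, CDH1 and CDX2 were higher with JQ1, whereas VIL1 was lower. VIL1 had 51.4 RPKM with JQ1 and 57 RPKM with DMSO in HT-29, and 4.62 RPKM with JQ1 and 24.4 RPKM with DMSO in HCT-15. EPCAM was lower with JQ1 in HT-29, and its groups overlapped in HCT-15. Endothelial markers summed to at most 0.0984 RPKM with JQ1 and 0.471 RPKM with DMSO, and fibroblast markers to at most 3.38 RPKM with JQ1 and 15.8 RPKM with DMSO. Neuroendocrine markers summed to at most 8.84 RPKM with JQ1 and 4.77 RPKM with DMSO. On the leukocyte list, the lysozyme gene LYZ stood at 1125 RPKM with JQ1 and 1518 RPKM with DMSO in HT-29 and 525 RPKM with JQ1 and 1057 RPKM with DMSO in COLO 205, and CD68, a macrophage marker, at 105 RPKM with JQ1 and 158 RPKM with DMSO in COLO 205. COL3A1, a fibroblast collagen, had 2.65 RPKM with JQ1 and 13.2 RPKM with DMSO in COLO 320, and PTPRC, the leukocyte antigen CD45, had 4.07 RPKM with JQ1 and 3.48 RPKM with DMSO there. The part of these markers in the results below was not tested.

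Averaged over the 6 lines, most of the 40 transcripts were lower with JQ1, by modest amounts. The size of the change, and for some genes its direction, differed between lines. In HT-29, 38 of 40 fell and 0 rose, with a median log2 change of -0.58, against 37.3% of all tested genes lower and 36.6% higher and an all-gene median of 0. The other 2 in HT-29, CDC25B and CDC25C, had log2 changes of 0.01 and 0.00, each with adjusted p over the 0.05 threshold (0.654 and 1). In HCT-15, 33 fell and 4 rose (35.4% and 34.8% of all tested genes), in COLO 205, 29 fell and 9 rose (38.6% and 34.2%), and in SW 480, 28 fell and 8 rose (40.1% and 33.9%). Their member medians were -0.30, -0.24 and -0.24 on the log2 scale, while the all-gene medians of these lines lay between -0.02 and 0. HCT 116 and COLO 320 had member medians close to 0. In HCT 116, 18 fell and 10 rose (35.5% and 32.4% of all tested genes), with a median of -0.02, and in COLO 320, 17 fell and 14 rose (37.2% and 31.0%), with a median of -0.05. With quantile scaling or median centring, the COLO 320 split was 15 lower and 18 higher, so its majority turned. Changes were called with limma on log2(RPKM + 0.5) at an adjusted p under 0.05 over all tested genes, a threshold that 67.8 to 74.0% of all genes passed in a line, so size matters more than the call. Falls of at least 1.5-fold numbered 20 in HT-29 (14.7% of all genes), 8 in COLO 205 (14.2%), 8 in HCT-15 (10.9%), 7 in SW 480 (13.4%), 1 in COLO 320 (11.4%) and 0 in HCT 116 (9.52%). A rise of that size was seen once, for CENPF in COLO 205, where 10.7% of all genes rose as much. The other lines had 0, against 6.55% of all genes in HCT 116, 10.1% in SW 480, 12.7% in HT-29, 10.5% in HCT-15 and 6.23% in COLO 320. On average over lines, 6 members fell by at least 1.5-fold (9.02% of all genes) and 0 rose by as much (6.78%).

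**Figure D1:**
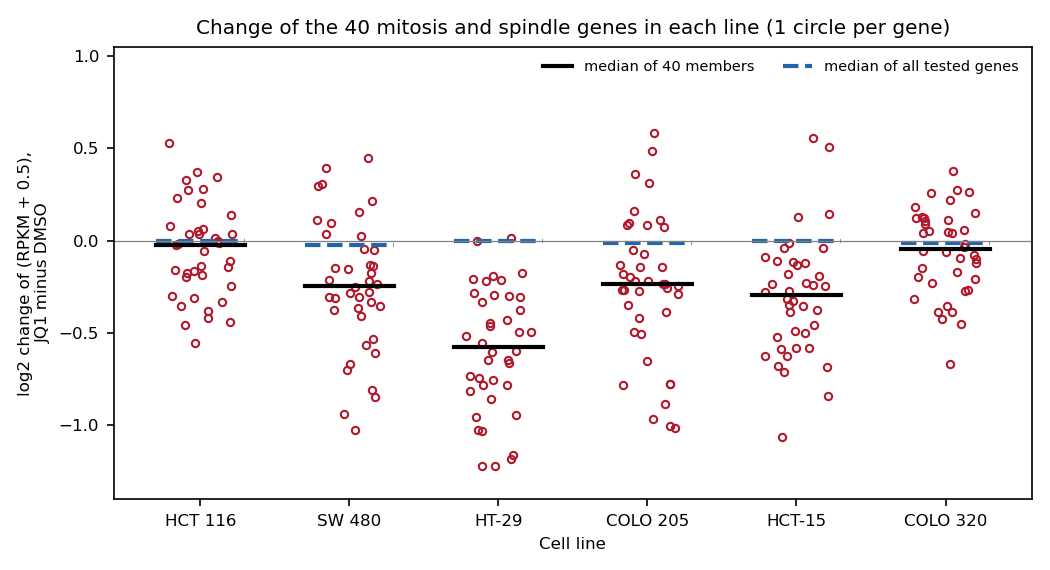
Log2 change of RPKM + 0.5, JQ1 minus DMSO, of each of the 40 genes (circles) in each cell line, with the median of the 40 (black bar) and of all 15542 tested genes (dashed blue bar). The member median lies lowest in HT-29, at -0.58, and close to the all-gene median in HCT 116 and COLO 320.

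The effect of JQ1 differed between lines for all 40 genes by the limma interaction F test, with adjusted p between 4.48e-23 and 3.55e-07. The same test called 93.3% of all tested genes, so this is no property of the mitotic genes. The direction of the difference set some lines apart. The JQ1 effect in HT-29 lay below the mean effect of the other 5 lines for 39 of 40 genes and above it for 0, against 29.0% and 35.5% of all tested genes, with a median difference of -0.41 log2 units. In COLO 320 it lay above the other lines for 32 genes and below for 3 (32.4% and 32.0% of all genes, median difference 0.21), and in HCT 116 above for 30 and below for 1 (32.5% and 28.4%, median 0.23). SW 480 split into 15 above and 14 below (32.1% and 33.5%), COLO 205 into 16 above and 14 below (34.1% and 33.4%), and HCT-15 into 10 above and 20 below (34.8% and 25.9%). Each of these 6 contrasts shares libraries with the others.

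Summed over the 40 genes, the level was 1343 RPKM with JQ1 and 2068 RPKM with DMSO in HT-29, as means of 3 libraries. It was 2045 RPKM with JQ1 and 2461 RPKM with DMSO in SW 480, 1643 RPKM with JQ1 and 1976 RPKM with DMSO in COLO 205, and 1890 RPKM with JQ1 and 2234 RPKM with DMSO in HCT-15. HCT 116 had 2241 RPKM with JQ1 and 2294 RPKM with DMSO, and COLO 320 had 1603 RPKM with JQ1 and 1720 RPKM with DMSO. In these sums, the HT-29 libraries had the widest distance between treatments and the HCT 116 libraries the narrowest.

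By direction, 11 genes fell in all 6 lines, namely FOXM1, AURKA, PRC1, UBE2C, PLK1, BUB1B, MAD2L1, CCNB1, BIRC5, CENPA and TPX2. Of all tested genes, 11.7% did so. No member rose in all 6 lines, against 11.2% of all tested genes, and 1, KIF4A, rose in 5, against 19.4% of all tested genes that rose in 5 or more. Of the 40, 20 fell in at least 1 line and rose in at least 1, as did 33.6% of all tested genes. The other 20 fell in some lines and rose in 0, as did 35.7% of all tested genes. Averaged over the 6 lines, 31 of 40 fell and 7 rose (48.3% and 40.2% of all tested genes), with a median of -0.21 and an all-gene median of -0.04. With the cell line as the unit of replication, 14 fell and 0 rose on average, against 19.9% and 18.1% of all genes. Those 14 were the 11 above with PLK4, ECT2 and BUB3, so the 7 average rises hold for these libraries and were not called over lines.

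**Figure D2:**
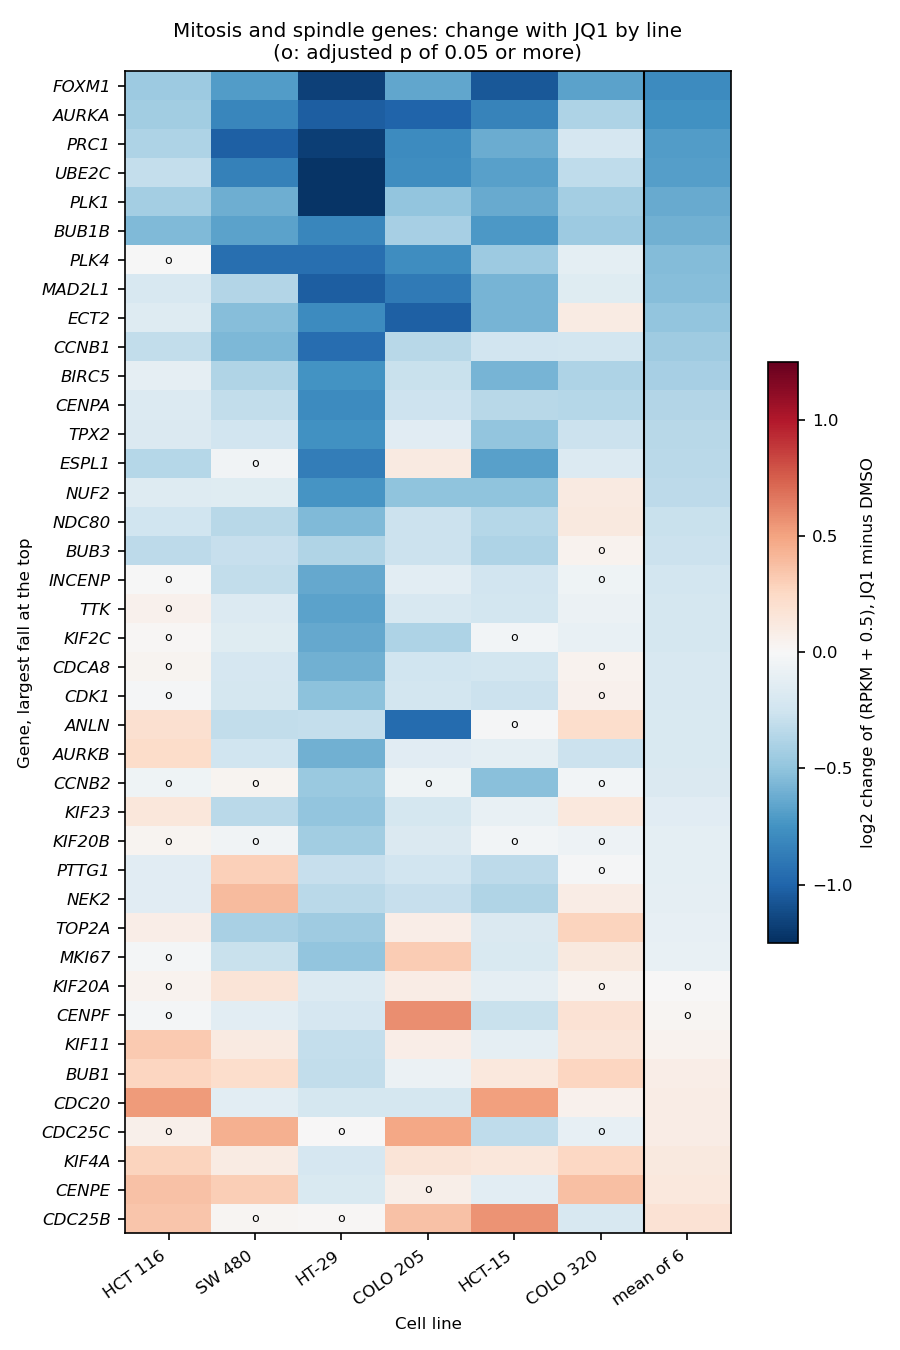
Log2 change of RPKM + 0.5, JQ1 minus DMSO, for each gene (rows, largest average fall at the top) in each line and on average over the 6 lines (columns), where o marks an adjusted p of 0.05 or more. FOXM1, AURKA, PRC1, UBE2C, PLK1 and BUB1B are blue in all 6 lines, and the rows at the foot, such as CDC25B, CENPE and KIF4A, are red in some lines and pale or blue in others.

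The promoters of 33 of the 40 genes are in the RefSeq promoter table (GRCh38.p14), each as 250 bases before to 50 after the transcription start. They were searched on both strands for TTTGAA, the core letters of the cell cycle homology region that MuvB complexes bind, and for CCAAT, the box bound by NF-Y. TTTGAA was present in 23 of 33 member promoters (69.7%), against 15.4% of all 27305 promoters and 9.96% of those of tested genes. CCAAT was present in 24 of 33 (72.7%), against 35.7% and 36.6%, and both in 18 of 33 (54.5%), against 6.08% and 4.22%. CACGTG, the E-box letters that MYC can bind, was in 5 of 33 (15.2%), against 7.43% and 9.86%. The E2F-type word TTCCCGC or its variants, spelled TTCGCGC in the second case, TTGCCGC in the third case and TTGGCGC in the last case, occurred in 8 (24.2%), against 13.1% and 20.4%. In 3 member promoters matches of these words overlapped, as in TTTGAATTGG, which holds TTTGAA and the reverse of CCAAT. By average change, TTTGAA was in 19 of 24 promoters of genes that fell, 3 of 7 of genes that rose and 1 of 2 of the uncalled genes. The 7 members without a promoter entry, FOXM1, AURKA, UBE2C, BIRC5, TPX2, BUB3 and TTK, all fell on average. The search therefore covered 24 of the 31 genes that fell but all 7 that rose, so these shares do not cover the sets alike. A match is only a run of letters, and its absence says nothing about any factor.

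To set genes that fell in every line beside genes that rose on average, the 120 bases before the start are printed 5′ to 3′ on the gene's strand, with capitals for TTTGAA (written TTCAAA when reversed) and for CCAAT (which reads ATTGG when reversed). PLK1, PRC1, BUB1B and CCNB1 fell, and CDC20, KIF4A, BUB1 and CDC25B rose on average.
PLK1 chr16:23678769-23678888, plus strand: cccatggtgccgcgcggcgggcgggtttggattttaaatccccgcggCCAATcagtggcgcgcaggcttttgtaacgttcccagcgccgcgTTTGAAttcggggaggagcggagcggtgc
PRC1 chr15:90994536-90994655, minus strand: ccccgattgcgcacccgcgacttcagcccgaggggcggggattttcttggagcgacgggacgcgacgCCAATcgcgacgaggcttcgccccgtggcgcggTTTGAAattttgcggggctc
BUB1B chr15:40160949-40161068, plus strand: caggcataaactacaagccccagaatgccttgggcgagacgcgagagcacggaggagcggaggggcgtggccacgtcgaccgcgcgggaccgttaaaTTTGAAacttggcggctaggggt
CCNB1 chr5:69167030-69167149, plus strand: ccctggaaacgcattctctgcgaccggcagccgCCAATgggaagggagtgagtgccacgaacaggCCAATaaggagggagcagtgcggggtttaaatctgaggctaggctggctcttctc
CDC20 chr1:43358861-43358980, plus strand: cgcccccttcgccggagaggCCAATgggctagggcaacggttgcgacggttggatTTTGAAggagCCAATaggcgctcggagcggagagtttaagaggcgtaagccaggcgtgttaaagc
KIF4A chrX:70289984-70290103, plus strand: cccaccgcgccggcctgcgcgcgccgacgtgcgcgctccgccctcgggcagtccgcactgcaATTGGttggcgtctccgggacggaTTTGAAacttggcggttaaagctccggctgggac
BUB1 chr2:110678064-110678183, minus strand: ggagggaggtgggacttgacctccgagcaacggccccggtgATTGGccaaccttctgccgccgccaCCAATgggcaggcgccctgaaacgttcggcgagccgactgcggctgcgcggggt
CDC25B chr20:3786831-3786950, plus strand: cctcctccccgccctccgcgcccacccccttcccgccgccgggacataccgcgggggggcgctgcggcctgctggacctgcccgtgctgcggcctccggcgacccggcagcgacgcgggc
PLK1 and PRC1, which fell, and CDC20 and KIF4A, which rose on average, all show both TTTGAA and a CCAAT box in this stretch, while BUB1B shows TTTGAA alone, CCNB1 and BUB1 show CCAAT boxes alone, and CDC25B shows neither.

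Among the 9 genes of mitotic entry, 7 fell and 2 rose on average (48.3% and 40.2% of all tested genes). Their median was -0.20 log2 units. FOXM1 (Entrez 2305), the forkhead factor that drives transcription of late cell cycle genes, fell most of all 40. It had 24.1, 23.5 and 24.4 RPKM in the JQ1 libraries of HT-29, against 54.5, 54.5 and 54.3 RPKM in its DMSO libraries. In HCT-15 it had 32.5, 33.9 and 35.2 RPKM in the JQ1 libraries, against 71.7, 71.5 and 70.7 RPKM in its DMSO libraries, and the groups did not overlap in any line. Its log2 change averaged -0.78 ± 0.00937 (SE), adjusted p = 6.49e-32 (1.72-fold lower), and ran between -1.16 in HT-29 and -0.46 in HCT 116. AURKA (Entrez 6790), the aurora kinase of the spindle poles, averaged -0.75. In COLO 205 it had 36.2, 38.3 and 36.9 RPKM in the JQ1 libraries, against 74.6, 77.04 and 73.1 RPKM in its DMSO libraries, and every JQ1 library lay below every DMSO library there and in the other lines. PLK1 (Entrez 5347), the polo-like kinase that acts through all of mitosis, had 37.5, 37.7 and 38.02 RPKM in the JQ1 libraries of HT-29, against 91.1, 89.7 and 85.6 RPKM in its DMSO libraries, a log2 change of -1.22 ± 0.0296 (SE), adjusted p = 3.83e-24. That fall was the deepest of any member in HT-29 together with UBE2C, and PLK1 fell by 0.42 to 0.63 log2 units in the other lines.

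CCNB1 (Entrez 891), cyclin B1, had 65.3, 65.9 and 67.9 RPKM in the JQ1 libraries of HT-29, against 130.2, 128 and 129 RPKM in its DMSO libraries. It fell there by 0.96 on the log2 scale, in SW 480 by 0.57 and in the remaining lines by 0.23 to 0.35. CCNB2, cyclin B2, fell only in HCT-15 (-0.52) and HT-29 (-0.46), with log2 changes between -0.05 and 0.04 in the other 4 lines that did not pass the test. CDK1 (Entrez 983), the kinase that cyclin B activates, fell in 4 lines, most in HT-29. It had 37.03, 36.6 and 36.4 RPKM in the JQ1 libraries of HT-29, against 52.1, 53.9 and 52.1 RPKM in its DMSO libraries, a log2 change of -0.52. Its change of 0.06 in COLO 320 was not called, but became a called rise with quantile scaling (0.11), median centring (0.09) or limma-voom (0.06). In HCT 116 the 2 groups overlapped, at 64.7, 62.6 and 62.3 RPKM in the JQ1 libraries, against 64.4, 63.6 and 63.03 RPKM in its DMSO libraries. NEK2, a centrosome kinase, rose in SW 480 (0.40) and COLO 320 (0.09) and fell in the other 4 lines.

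The CDC25 phosphatases, which remove the inhibitory phosphates of CDK1, gave both average rises of the entry group. CDC25B (Entrez 994) had 74.4, 71.96 and 72.7 RPKM in the JQ1 libraries of HCT-15, against 49.3, 49.6 and 49.6 RPKM in its DMSO libraries, a log2 change of 0.56 ± 0.0226 (SE), adjusted p = 1.01e-18. It also rose in COLO 205 (0.36) and HCT 116 (0.34) but fell in COLO 320 (-0.20). Its uncalled change in HT-29 became a called fall when total reads replaced the authors' divisor (-0.06), and a called rise with quantile scaling (0.06). In SW 480 its uncalled change became a called rise with median centring (0.05). CDC25C (Entrez 995) had 12.8, 13.5 and 12.4 RPKM in the JQ1 libraries of COLO 205, against 9.57, 8.61 and 8.98 RPKM in its DMSO libraries, a log2 change of 0.49, and rose by 0.45 in SW 480. In HCT-15 it fell by 0.32, with 7.67, 7.16 and 8.01 RPKM in the JQ1 libraries, against 9.9, 9.3 and 9.58 RPKM in its DMSO libraries. The average rise of CDC25C was not called without COLO 205 (0.02) or without SW 480 (0.03).

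PLK4, the kinase that starts centriole duplication and the sole gene of its group, fell in 5 lines. Its log2 change was -0.94 in HT-29, -0.94 in SW 480, -0.77 in COLO 205, -0.46 in HCT-15 and -0.12 in COLO 320. HCT 116 stood apart, with 16.2, 15.3 and 15.95 RPKM in the JQ1 libraries, against 15.9, 16.4 and 15.2 RPKM in its DMSO libraries and an adjusted p of 1.

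**Figure D3:**
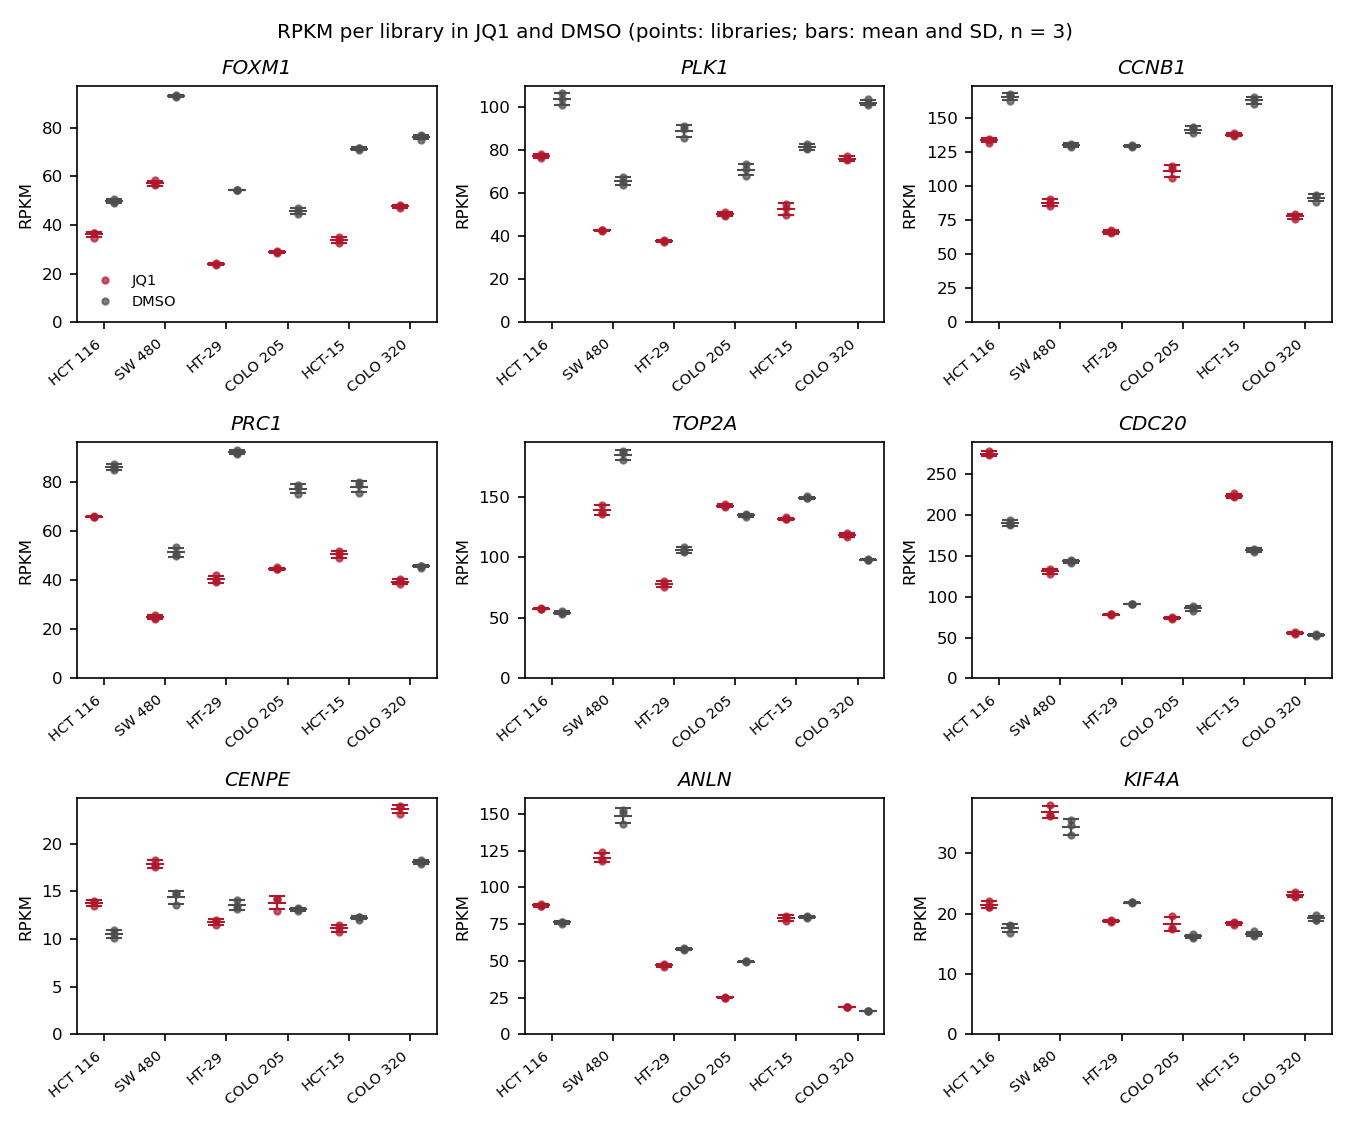
RPKM of 9 of the genes in every library (points), with mean and SD (bars, n = 3), JQ1 in red and DMSO in grey for each line. FOXM1, PLK1, CCNB1 and PRC1 are lower with JQ1 in all 6 lines, whereas CDC20, CENPE, ANLN, TOP2A and KIF4A are higher with JQ1 in some lines and lower in others.

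Of the 5 genes of the spindle assembly checkpoint, 4 fell on average and 1 rose (48.3% and 40.2% of all tested genes). Their median was -0.27. BUB1B (Entrez 701), which encodes the BUBR1 subunit of the inhibitory checkpoint complex, had 23.4, 22.2 and 23.7 RPKM in the JQ1 libraries of HT-29, against 40.1, 40.8 and 41.9 RPKM in its DMSO libraries. It also fell in HCT 116, with 37.97, 37.4 and 37.5 RPKM in the JQ1 libraries, against 55.1, 55.5 and 55.8 RPKM in its DMSO libraries, where its log2 change of -0.56 ± 0.0256 (SE), adjusted p = 3.13e-17 was the deepest of the 40. MAD2L1, which encodes MAD2 of the same complex, fell between -1.03 in HT-29 and -0.15 in COLO 320. BUB3, the partner of BUB1 and BUBR1, fell in 5 lines by 0.27 to 0.39 and had a log2 change of 0.04 in COLO 320 that did not pass the test. TTK, the checkpoint kinase MPS1, fell in 5 lines by 0.08 to 0.66. BUB1 (Entrez 699), the kinase that recruits checkpoint proteins to kinetochores, moved otherwise than its partners. It had 78, 75.4 and 78.2 RPKM in the JQ1 libraries of HCT 116, against 63.2, 63.8 and 64.4 RPKM in its DMSO libraries, a log2 change of 0.27 ± 0.0262 (SE), adjusted p = 3.02e-10. It rose likewise in COLO 320 (0.27), SW 480 (0.22) and HCT-15 (0.13), and fell in HT-29 (-0.31). Its small fall in COLO 205 (-0.07) turned to 0.01 with quantile scaling and was not called without JQ1 replicate 3 (-0.05), and the rise in HCT-15 was not called with total reads as divisor (0.01).

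Of the 5 kinetochore and centromere genes, 3 fell, 1 rose and 1 was not called on average, with a median of -0.28. Of all tested genes, 48.3% fell and 40.2% rose on average. CENPA, the histone variant that marks centromeres, fell in all 6 lines, by 0.17 in HCT 116 to 0.78 in HT-29. NDC80 and NUF2, the paired subunits that hold microtubules, fell in 5 lines each and rose by 0.12 and 0.11 log2 units in COLO 320. CENPE (Entrez 1062), the motor that carries chromosomes to the spindle equator, had 23.9, 23.9 and 23.1 RPKM in the JQ1 libraries of COLO 320, against 17.9, 18.3 and 18.1 RPKM in its DMSO libraries. Its log2 change of 0.38 ± 0.0349 (SE), adjusted p = 1.23e-10 was the largest rise in COLO 320. It rose in HCT 116 (0.37) and SW 480 (0.31) too, and fell in HT-29 (-0.19) and HCT-15 (-0.13). Its change of 0.07 in COLO 205 was not called, but became a called rise under another divisor or scaling, with limma-voom or without JQ1 replicate 3 (0.07 to 0.11). CENPF (Entrez 1063), a large kinetochore protein, had 38.8, 40.5 and 41.1 RPKM in the JQ1 libraries of COLO 205, against 26.7, 27.2 and 25.9 RPKM in its DMSO libraries, a rise of 0.59 log2 units (1.5-fold). The groups did not overlap in COLO 205, but CENPF fell in HCT-15 (-0.28), HT-29 (-0.21) and SW 480 (-0.14). Its average of 0.02 turned to -0.09 without COLO 205. In COLO 320, 4 of the 5 genes rose and 1 fell (31.0% and 37.2% of all tested genes).

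All 4 genes of the chromosomal passenger complex, which corrects wrong attachments and then guides cytokinesis, fell on average, as did 48.3% of all tested genes. Their median was -0.22. BIRC5, which encodes survivin, fell in all 6 lines, by 0.11 in HCT 116 to 0.75 in HT-29. AURKB, the kinase of the complex, fell in 5 lines, by 0.12 to 0.60, but rose in HCT 116, with 75.2, 81.1 and 77.2 RPKM in the JQ1 libraries, against 67.2, 65.1 and 66.6 RPKM in its DMSO libraries. INCENP, the scaffold, and CDCA8, which encodes borealin, fell in the same 4 lines (HT-29, SW 480, HCT-15 and COLO 205) and had log2 changes between -0.06 and 0.05 in HCT 116 and COLO 320 that did not pass the test.

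The 4 spindle motors and regulators split into 2 that fell and 2 that rose on average, near the shares of all tested genes (48.3% and 40.2%). TPX2, which activates AURKA on spindle microtubules, fell in all 6 lines, by 0.14 in COLO 205 to 0.76 in HT-29. KIF2C, which takes apart microtubule ends, fell in 4 lines, most in HT-29 (-0.64). KIF11, the motor that pushes spindle poles apart, rose in HCT 116 (0.33), COLO 320 (0.15), SW 480 (0.11) and COLO 205 (0.09) and fell in HT-29 (-0.29) and HCT-15 (-0.12). KIF4A (Entrez 24137), a chromosome-arm and midzone motor, had 21.2, 22.1 and 21.2 RPKM in the JQ1 libraries of HCT 116, against 18.02, 18.1 and 16.8 RPKM in its DMSO libraries, a log2 change of 0.28 ± 0.0339 (SE), adjusted p = 2.91e-08. In HT-29 it went the other way, with 18.6, 18.97 and 18.8 RPKM in the JQ1 libraries, against 21.8, 21.9 and 21.9 RPKM in its DMSO libraries. KIF4B, its near-identical copy, was listed at 1.43 to 3.89 RPKM, so how the authors' counting split reads between the pair is uncertain. The rise of KIF4A in SW 480 (0.10) was not called without SW 480 DMSO replicate 1 (0.07) or JQ1 replicate 1 (0.08), and that in HCT-15 (0.14) with total reads as divisor (0.02).

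Of the 6 cytokinesis genes, 5 fell and 0 rose on average (48.3% and 40.2% of all tested genes), with a median of -0.17. In COLO 320, however, 3 rose and 1 fell (31.0% and 37.2% of all tested genes). PRC1 (Entrez 9055), which bundles the midzone microtubules, had 39.4, 39.9 and 42.04 RPKM in the JQ1 libraries of HT-29, against 93.1, 92.2 and 91.5 RPKM in its DMSO libraries. In SW 480 it had 26.1, 24.8 and 24.4 RPKM in the JQ1 libraries, against 50.2, 53.6 and 50.9 RPKM in its DMSO libraries, a log2 change of -1.02 ± 0.0276 (SE), adjusted p = 1.05e-22 and the deepest fall in that line. In both lines every JQ1 library lay well below every DMSO library. PRC1 fell least in COLO 320 (-0.21). ECT2 (Entrez 1894), the exchange factor that switches on RhoA at the cell equator, had 39.3, 39.96 and 38.9 RPKM in the JQ1 libraries of COLO 205, against 80.7, 79.9 and 79.9 RPKM in its DMSO libraries, a log2 change of -1.02 and the deepest fall in COLO 205. COLO 320 was the exception for ECT2, with 53.2, 50.5 and 51.96 RPKM in the JQ1 libraries, against 48.2, 48.2 and 48.1 RPKM in its DMSO libraries, a rise of 0.11 on the log2 scale.

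ANLN (Entrez 54443), the anillin scaffold of the contractile ring, had the smallest interaction p of the 40. It had 24.9, 25.7 and 24.8 RPKM in the JQ1 libraries of COLO 205, against 49.1, 49.6 and 49.96 RPKM in its DMSO libraries, a log2 change of -0.97 ± 0.0213 (SE), adjusted p = 4.96e-25. Its effect in COLO 205 minus the mean effect of the other 5 lines was -0.93 log2 units (adjusted p = 3.41e-23). In COLO 320, where its level was lowest, it rose, with 18.8, 18.6 and 18.9 RPKM in the JQ1 libraries, against 16.02, 16.2 and 15.9 RPKM in its DMSO libraries. ANLN also rose in HCT 116 (0.20), and it fell in HT-29 and SW 480 as well as in COLO 205. In HCT-15 its change of -0.01 became a called fall with total reads as divisor (-0.14) or quantile scaling (-0.06). KIF23, the motor subunit of centralspindlin, rose in HCT 116 (0.14) and COLO 320 (0.13) and fell in the other lines. KIF20A, a midzone motor, rose in SW 480 (0.16) and COLO 205 (0.10) and fell in HT-29 (-0.17) and HCT-15 (-0.11). KIF20B fell in HT-29 (-0.43) and COLO 205 (-0.18).

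Of the 4 genes of anaphase and protein degradation, 3 fell and 1 rose on average (48.3% and 40.2% of all tested genes). Their median was -0.23. UBE2C (Entrez 11065), the ubiquitin-conjugating enzyme of the anaphase-promoting complex, had 35.9, 36.6 and 36.7 RPKM in the JQ1 libraries of HT-29, against 86.4, 86.1 and 84.4 RPKM in its DMSO libraries. It fell by 0.85 in SW 480, 0.78 in COLO 205, 0.68 in HCT-15, 0.31 in COLO 320 and 0.30 in HCT 116. CDC20 (Entrez 991), the activator that brings substrates to the same complex, moved against it in 3 lines. It had 274, 278 and 273 RPKM in the JQ1 libraries of HCT 116, against 194, 188 and 189 RPKM in its DMSO libraries, the largest rise of that line at 0.53 ± 0.0218 (SE), adjusted p = 2.29e-18. In HCT-15 it rose by 0.51, with 222, 227 and 223 RPKM in the JQ1 libraries, against 159, 155 and 157 RPKM in its DMSO libraries, while it fell in HT-29 (-0.22), COLO 205 (-0.22) and SW 480 (-0.13). In COLO 320 its small rise (0.05) was not called with limma-voom on recovered reads or without either of 2 DMSO libraries or JQ1 replicate 3. Its average of 0.09 came to -0.00064 without HCT 116 and 0.00347 without HCT-15, so the average rise rests on those lines. ESPL1, which encodes separase, fell in HT-29 (-0.86), HCT-15 (-0.68), HCT 116 (-0.35) and COLO 320 (-0.17) and rose in COLO 205 (0.11). PTTG1, which encodes its inhibitor securin, fell in 4 lines and rose in SW 480 (0.30). PTTG3P, a near copy of PTTG1, was listed at 3.72 to 11.5 RPKM, so PTTG1 is uncertain too.

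TOP2A and MKI67, the genes of chromosome structure and surface, both fell on average, as did 48.3% of all tested genes. Their average log2 changes were small, at -0.10 and -0.09, and neither was called with the cell line as unit. TOP2A (Entrez 7153), the topoisomerase that untangles sister chromatids, had 75.2, 77.5 and 80.2 RPKM in the JQ1 libraries of HT-29, against 106, 104 and 108 RPKM in its DMSO libraries. TOP2A also fell by 0.41 in SW 480 and by 0.18 in HCT-15, but rose by 0.08 in both HCT 116 and COLO 205. In COLO 320 it rose most, with 120, 118 and 117 RPKM in the JQ1 libraries, against 97.7, 98.4 and 97.5 RPKM in its DMSO libraries, a log2 change of 0.27. MKI67 (Entrez 4288), which encodes the Ki-67 coat of mitotic chromosomes and a common proliferation marker, had 28.6, 27.7 and 28.8 RPKM in the JQ1 libraries of HT-29, against 39.6, 38.2 and 42.8 RPKM in its DMSO libraries. It rose in COLO 205 (0.31) and COLO 320 (0.12), had a change of -0.02 in HCT 116 that did not pass the test, and fell in SW 480 (-0.28) and HCT-15 (-0.19). The rise in COLO 320 was not called when any of 4 libraries was left out (0.11 to 0.12). Its average of -0.09 was -0.01 and not called without HT-29.

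The levels of all 40 genes also differed between lines with DMSO alone (F test over the 6 DMSO groups in limma), as did those of 98.8% of tested genes. The highest line mean was 1.43 times the lowest for CENPF, a median of 1.88 times over the 40 genes, and 9.26 times for ANLN, at 149 RPKM in SW 480 and 16.1 RPKM in COLO 320. SW 480 had the highest DMSO mean for 15 genes and HCT 116 for 10, while COLO 320 had the lowest for 16 and COLO 205 for 9. The 31 genes that fell on average had a median DMSO level of 54.6 RPKM and the 7 that rose one of 34.2 RPKM, as a description. Median gene length, recovered from the RPKM steps, was 3022 bases for genes that fell, 3675 for genes that rose and 2750 for all tested genes. These sets were chosen by their changes, so they were not tested.

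Other mitotic genes are given by list, to be read against the 48.3% of all tested genes that were lower and the 40.2% that were higher on average. The list of MuvB, DREAM and MYBL2 genes, the regulators of mitotic transcription, had the lowest median of the 11 other lists, -0.41, with 9 of 10 lower and 1 higher on average. LIN9, a MuvB core subunit, averaged 4.45 RPKM with JQ1 and 8.51 RPKM with DMSO over the 6 lines, a log2 change of -0.83, and LIN37, of the same core, rose by 0.34. Of 18 further inner kinetochore genes, 15 were lower and 1 higher (median -0.27), and of 18 outer kinetochore and checkpoint genes, 14 were lower and 2 higher (median -0.21, beside -0.21 for the 40). Among them TRIP13, which takes the MAD2 checkpoint complex apart, changed by -0.88, CENPQ by -0.49, KNL1, the kinetochore platform for BUB1, by 0.38, and CENPC, an anchor of the inner kinetochore, by 0.16. Augmin and gamma-tubulin genes, which nucleate spindle microtubules, were lower in 10 of 15 and higher in 4 (median -0.30), between HAUS1 (-0.56) and TUBGCP6 (0.59). Cohesin and its regulators, which hold sister chromatids together, were lower in 11 of 15 and higher in 4 (median -0.15), between SGO1 (-0.60) and NIPBL (0.33).

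Condensin genes, which compact chromosomes, were lower in 4 of 8 and higher in 4 (median -0.04), with the partner subunits SMC2 at -0.55 and SMC4 at 0.23. The anaphase-promoting complex had 7 of 17 lower and 7 higher (median 0.00), between ANAPC10 (-0.43) and ANAPC16 (0.49), beside the fall of its partner enzyme UBE2C. Spindle assembly genes were lower in 12 of 22 and higher in 5 (median -0.09), between KNSTRN (-0.59) and NUMA1 (0.26), and centriole genes lower in 5 of 10 and higher in 3 (median -0.02), between SASS6 (-0.66) and CEP192 (0.44). Entry regulators were lower in 7 of 11 and higher in 2 (median -0.13), with CDC25A, the third CDC25 phosphatase, at -1.07 and ENSA, an inhibitor of a CDK1-opposing phosphatase, at 0.39. Tubulins leaned the other way, with 4 of 10 lower and 6 higher (median 0.20), between TUBA4A (-0.86) and TUBB3 (1.22). Taking lines as the unit, with 19.9% of all genes lower and 18.1% higher, left 7 of 18 inner kinetochore genes lower and 0 higher, 6 of 10 MuvB, DREAM and MYBL2 genes lower and 1 higher, and 2 of 8 condensin genes lower and 0 higher. The remaining lists are not given with lines as the unit, so their counts are shown for these libraries only.

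**Figure D4:**
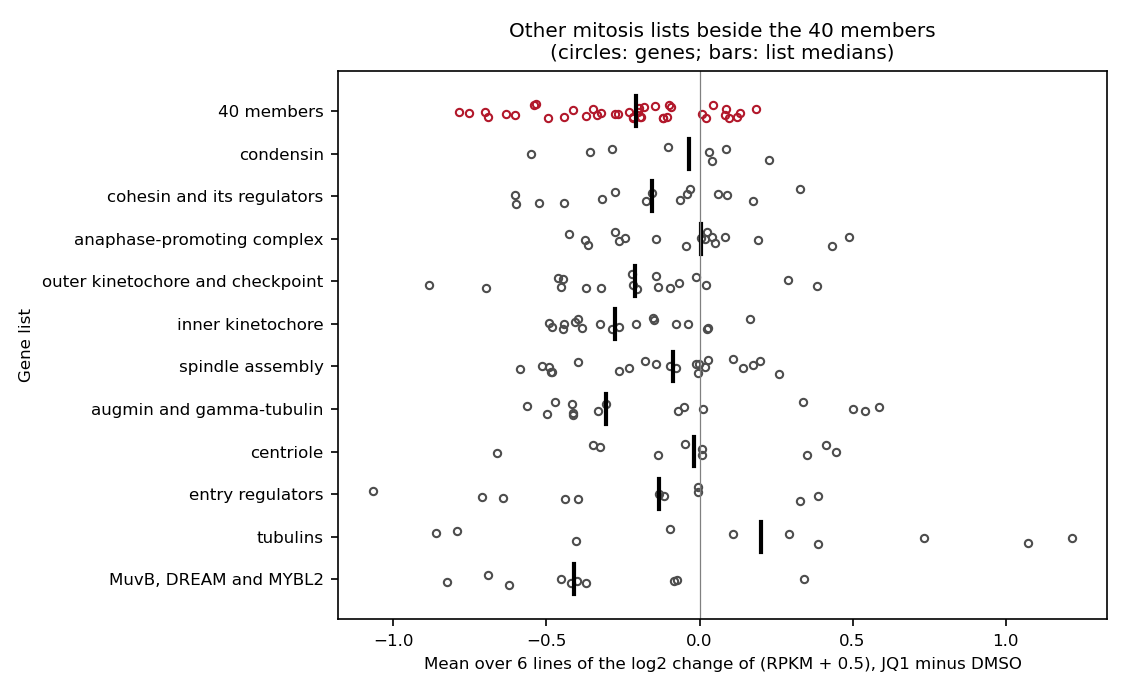
Mean over the 6 lines of the log2 change of RPKM + 0.5, JQ1 minus DMSO, for the 40 genes (red circles) and 11 other mitosis lists (grey circles), with list medians (black bars). The MuvB, DREAM and MYBL2 list has the lowest median, at -0.41, and the tubulins the highest, at 0.20.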

How the data were processed

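The authors deposited RPKM values per gene for the 36 libraries, named by Entrez number. GSNAP, DESeq, limma and a build called NCBIM37, which is a mouse assembly's name, appear without versions in the submitters' processing notes, with no human build named in those notes. Symbols came from RefSeq (GRCh38.p14) and named 24519 of 26468 genes. Whole reads were recovered from the RPKM steps for 100% of the 23499 genes above 0 (within 0.01 read), which also gave gene lengths. Strand is not stated, so antisense reads cannot be told apart.

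Genes with RPKM of at least 1 in at least 3 libraries (15542) were tested on log2(RPKM + 0.5), a scale that understates changes of low genes. limma 3.58.1 in R 4.3.3 fitted 12 group means with a mean-variance trend, with two-sided tests and Benjamini-Hochberg adjustment over all genes within each contrast. An analysis of the recovered reads with limma-voom was an alternative. Other pseudocounts, filters, scalings, fits by line, left-out libraries and the cell line as unit were tried too. The tests were checked on simulated data. Replicate chi-square per gene was 1.22 to 3.2 over 36 pairs, above what counting error alone gives. Same-numbered libraries did not deviate together (0 of 18 pairs over r = 0.1). The members and lists were chosen with earlier results of these data known. Named genes are the 6 largest average rises and falls, the 6 smallest interaction p, each line's extremes, and CCNB1, CDK1, PLK1, FOXM1, TOP2A and MKI67. Other members were chosen for their role in each group and named after their values were seen.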

Additional observations from a re-analysis of the deposited data

Results flagged for a closer look

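The JQ1 effect differed between lines for all 40 genes (interaction F test in limma, Benjamini-Hochberg over all genes), as it did for 93.3% of tested genes. The 19 genes named by rule are given here with the adjusted p of that test. ANLN (4.48e-23), ECT2 (2.18e-21), CDC20 (1.72e-20), UBE2C (3.84e-19), TOP2A (4.05e-19) and PRC1 (1.04e-18) had the smallest values. CDC25B (5.85e-18), FOXM1 (2.29e-17), CCNB1 (1.03e-16), AURKA (2.13e-16) and PLK1 (6.2e-16) followed. CENPF (6.05e-15), BUB1 (2.05e-14), CENPE (1.29e-12), CDK1 (3.01e-12), CDC25C (3.76e-11), MKI67 (5.42e-11), BUB1B (8.48e-11) and KIF4A (1.93e-09) were the others. Among them FOXM1, AURKA, PRC1, UBE2C, PLK1, BUB1B and CCNB1 fell in all 6 lines and so differed in size, whereas ANLN, ECT2, CDC20, TOP2A, CDC25B, CENPF, BUB1, CENPE, CDC25C, MKI67 and KIF4A changed in both directions. CDK1 fell in 4 lines and rose in 0, although in COLO 320 its change was a called rise under quantile scaling (0.11), median centring (0.09) and limma-voom (0.06).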

How the results depend on the processing

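The counts of the 40 genes were repeated under the other settings, which gave 430 combinations of a count and a setting. Many of these settings only left out a single library. Of the 430 combinations, 426 stayed within 1.5 times the reported count. The exceptions were HT-29, with 1 rise under quantile scaling (0 reported), and HCT-15, with 2 rises with total reads as divisor (4 reported). The others came with the cell line as unit, with 0 rises and 14 falls on average (7 and 31 reported). There the SE is that of the spread between lines, as for FOXM1 (0.106, against 0.00937 in the main fit). Causes of these exceptions were not tested. Single values that changed sign were BUB1 in COLO 205 (0.0124 with quantile scaling, adjusted p = 0.682), CDC25B in HT-29 (-0.0571 with total reads, adjusted p = 0.0279), CDC20 on average (-0.00064 without HCT 116, adjusted p = 0.952) and CENPF on average (-0.0928 without COLO 205, adjusted p = 3.1e-06), the last 2 under averages that leave out a line, chosen after seeing the data. Leaving out each replicate gave 11 to 13 rises and 16 to 17 falls in COLO 320, 8 to 10 and 28 to 30 in COLO 205, 7 to 8 and 28 to 29 in SW 480, and at most 1 gene of difference in the other lines. Called differences between a line and the rest, summed over the 40 genes and 6 lines, then numbered 188 to 195 (194 in the main fit). In these 6 contrasts, 60.7 to 67.5% of all tested genes were called. Total reads as divisor moved the all-gene average median to -0.07, against -0.04 with the authors' divisor. The replicate block, tried although replicate numbers pair no libraries here (6 of 18 libraries matched their own number best), gave 38 falls in HT-29, 31 falls and 7 rises on average and 191 differences between lines. Depth limits little, since every member passed the filter, but the calls rest on small spreads between replicates.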
